A study of Mus musculus with 36 samples.

Results

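The somite and sclerotome transcription factors described here are 8 genes, Pax1, Pax3, Pax9, Sox9, Meox1, Meox2, Tcf15 and Twist1. They were chosen by name, as every probe of the deposited table whose symbol is one of the 8. They have 10 probes among the 45281 probes and 30869 gene symbols of the table. RNA from dissected regions of mouse embryos, taken while the body axis lengthens and up to the stages when elongation ends, was measured on 36 Illumina BeadChip arrays. All embryos were wild type, of the outbred strain MF1, and received no treatment. Each array held a pool of 6 to 74 pieces of 1 region, with a median of 31, so that the spread between replicates is a spread between pools. There were 16 regions, 12 with 2 arrays and 4 with 3.

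At E7.5 the regions were A (the anterior, neural-fated part), P (posterior, with the primitive streak) and PP (proximal posterior, the posterior end of the streak). At E8.5 they were RN (rostral node), NSB (node-streak border), CLE (caudal lateral epiblast), St1 (anterior streak) and St5 (posterior streak). By the paper's methods, endoderm and presomitic mesoderm under the CLE were removed, while other regions were taken whole. Differences from CLE therefore compare unlike pools. Later pools came from the chordoneural hinge (CNH), daily from E9.5 until E13.5, and from the tissue just behind it (P-CNH), until E11.5. The regions with 3 arrays were A, NSB, CLE and the CNH of E11.5. The fewest pieces went into the E9.5 regions, 6 to 10 in CNH and 6 to 11 in P-CNH, and the most into E13.5 CNH, 48 to 74.

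Somites are blocks of paraxial mesoderm that bud off from the presomitic mesoderm on either side of the neural tube. Signals from the notochord and floor plate, Sonic hedgehog among them, turn the ventral part of each somite into sclerotome, the source of vertebrae and ribs, while the dorsal part becomes dermomyotome, the source of muscle and dermis. Meox1, Meox2 and Tcf15 act in somite formation and patterning, Pax3 marks presomitic mesoderm and dermomyotome as well as the dorsal neural tube, Pax1 and Pax9 define the sclerotome, Sox9 drives cartilage formation and is also active in notochord and neural tissue, and Twist1 acts in mesenchyme of several origins.

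A probe counted as detected on an array at a detection p-value under 0.01 against the negative-control beads of that array. Arrays detected 10814 to 16256 probes, with a median of 15054, and the fewest were found on E13.5 CNH replicate 2 (10814) and E8.5 CLE replicate 1 (11062). Replicates of a region correlated least in E13.5 CNH, at r = 0.858, and in E11.5 P-CNH, at r = 0.859, across the tested probes. The arrays were run in 3 batches of 12. Batch 1 held all arrays of St1, St5, RN and both E10.5 regions with the first 2 of NSB. The remaining NSB array, replicate 3, is the only link between it and batches 2 and 3. Levels are given as normalised log2 intensity on each array, before any batch term. Differences are log2 differences from a fit with region and batch terms, and were called where the adjusted p was 0.05 or less and the fold change 1.5 or more.

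Of the 8 genes, 5 were detected on at least 1 array and entered the tests, with 6 probes among the 21712 probes tested. Sox9 was detected on 36 of 36 arrays, Tcf15 on 34, Meox1 on 33, Twist1 on 33 and Pax3 on 6. Tests over all regions at once called 35.6% of the tested probes, and called 5 of these 5 genes, each of which was tested only because it had passed the detection filter. The fitted region levels spanned a log2 range of 4.91 for Tcf15, 4.54 for Sox9, 4.39 for Meox1, 3.40 for Twist1 and 1.70 for Pax3. Over all tested probes this range had a median of 1.47 and a 90th percentile of 3.03. The order of the genes by range depends on the batch terms. Before those terms, region means ran from 10.6 (E7.5 P) to 5.68 (E8.5 St5) for Meox1. For Tcf15 they ran from 9.81 (E7.5 P) to 5.89 (E7.5 PP).

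**Figure D1:**
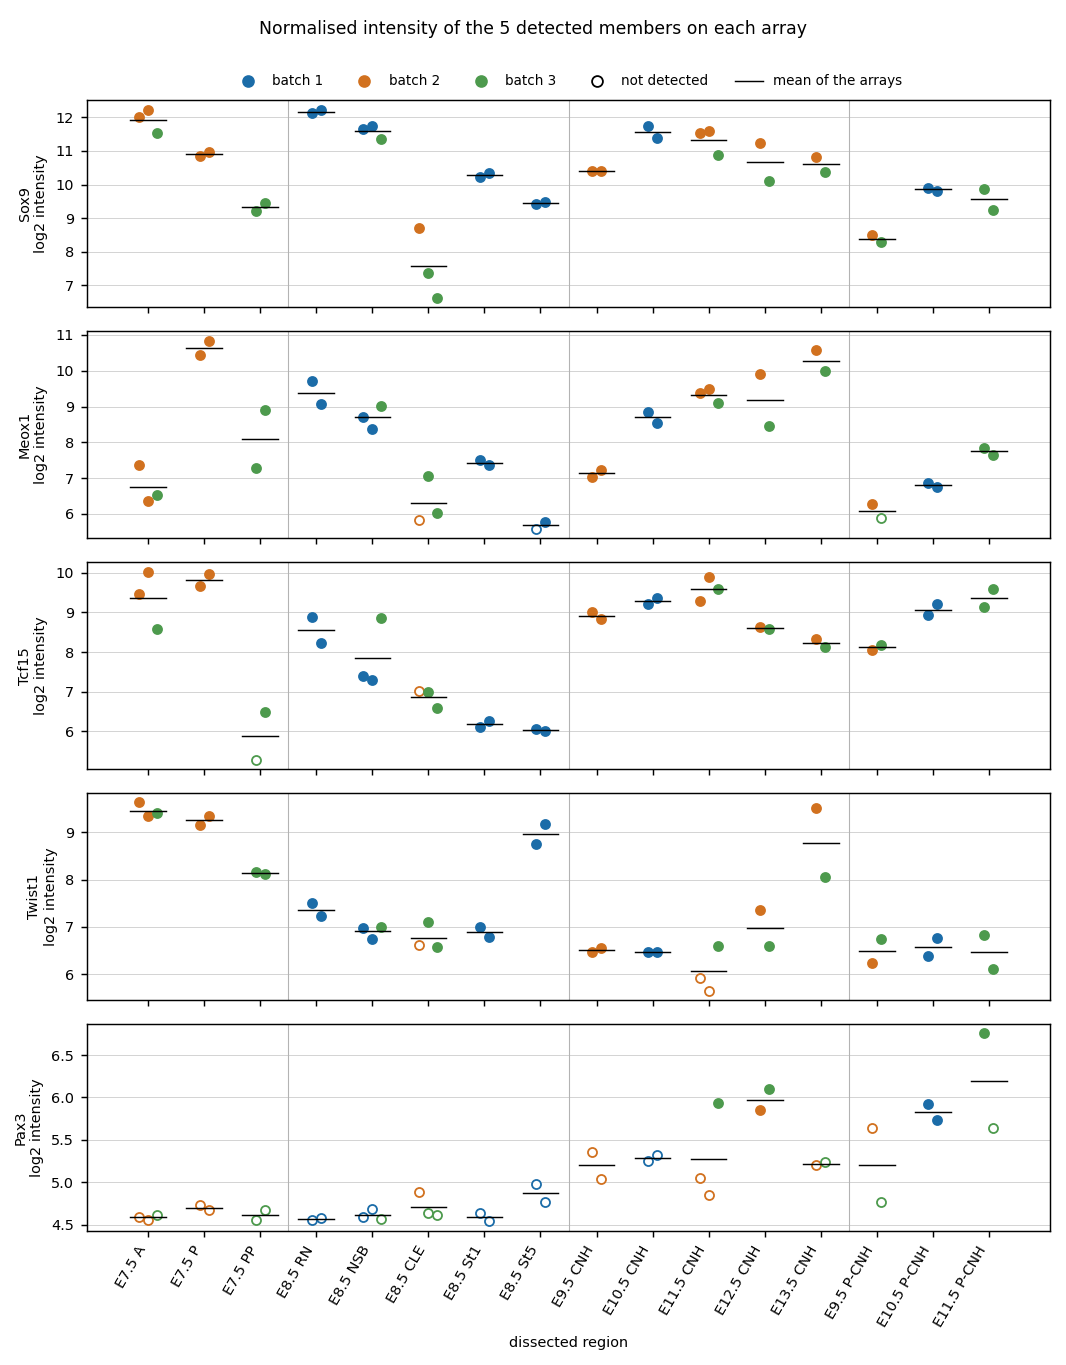
Normalised log2 intensity (vertical axis) of Meox1, Tcf15, Sox9, Twist1 and Pax3 on each of the 36 arrays, by region (horizontal axis), with filled points where the probe was detected, colour for the batch and bars for region means. Sox9 ran from 6.62 in E8.5 CLE to 12.22 in E7.5 A, and Pax3 was detected on 6 arrays, all from E10.5 on.

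The paired-box genes Pax1 and Pax9, which define the sclerotome, were detected in no region. Pax1 has 2 probes, detected on 0 of 36 arrays, of which the brighter lay between log2 4.39 and 5.64 and came nearest to detection on E10.5 CNH replicate 2, at a detection p-value of 0.0502. Pax9 lay between 4.45 and 5.02, and its lowest detection p-value was 0.146, on E9.5 P-CNH replicate 1. Meox2, a homeobox gene of the somites and later of muscle precursors, lay between 4.41 and 5.30 and was also detected on no array, with a lowest detection p-value of 0.0801 on E13.5 CNH replicate 1. These levels are those of probes at the background of their arrays, and the 3 genes were not tested. Nkx3-2, a target of Pax1 and Pax9 in the sclerotome, was likewise undetected on every array, as were the cartilage genes Acan, Matn1, Sox6 and Runx2. The label sclerotome therefore rests here on Sox9 and Twist1, which are not confined to that tissue, and no region is named sclerotome from them.

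Pax3, a paired-box gene of presomitic mesoderm, dermomyotome and dorsal neural tube, stood at background up to E8.5, where its arrays lay between 4.54 and 4.98. In CNH it measured 5.35 and 5.04 at E9.5, 5.25 and 5.32 at E10.5, 5.05, 4.85 and 5.94 at E11.5, 5.85 and 6.10 at E12.5 and 5.20 and 5.24 at E13.5. In P-CNH it measured 5.64 and 4.76 at E9.5, 5.92 and 5.73 at E10.5, and 6.76 and 5.64 at E11.5. It was detected on both arrays of E12.5 CNH and of E10.5 P-CNH, on E11.5 CNH replicate 3 and on E11.5 P-CNH replicate 1, so that all detections came from E10.5 to E12.5. Over the 16 regions Pax3 was called (adjusted p = 9.08e-04), but in no pairwise comparison. E11.5 and E9.5 P-CNH, with 1 of 4 arrays detected and overlapping values, did not differ by a called amount (adjusted p = 0.148). Both E13.5 CNH arrays were undetected and lay below the E12.5 arrays, again without a call (adjusted p = 0.128). The lowest detected log2 value was 6.10 and 7.19 on the E13.5 arrays, against 5.81 and 5.60 on the E12.5 arrays. A signal at the E12.5 level would therefore not have been detected on E13.5 replicate 2. Of the dermomyotome and muscle genes that share tissue with Pax3, 6 were detected on no array, Pax7, Myf5, Myf6, Myod1, Met and En1, and no region detected more than 1 of the 8.

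Meox1, a homeobox gene needed with Meox2 for normal somite and sclerotome development, varied sharply within the E7.5 embryo. It measured 10.43 and 10.84 in P, 7.27 and 8.91 in PP, and 7.36, 6.35 and 6.54 in A. Every P array was therefore brighter than every A and PP array, while the A and PP arrays overlapped. Meox1 was 13.7-fold lower in A than in P (log2 difference -3.77, SE 0.43, adjusted p = 4.16e-06), with -3.78 inside batch 2, which holds 2 arrays of each. PP minus P was -2.21 (SE 0.52, adjusted p = 0.0459) and A minus PP was -1.57 (SE 0.45, adjusted p = 0.0392; -1.55 within batch 3), both called. No batch held both P and PP, and the PP arrays lie far apart. The PP minus P call was kept in only 11 of 36 fits that left out 1 array, with values from -3.03 to -1.39. It was lost without P replicate 1 (-2.41, adjusted p = 0.103), P replicate 2 (-2.01, 0.143) or PP replicate 1 (-1.39, 0.647), and also without most single arrays of the other regions. It also ended with BeadChip as a random block (-2.33, adjusted p = 0.0964), array weights (-1.93, 0.193), no filter (-2.21, 0.0874) and batches 2 and 3 alone (-2.21, 0.314). The replicate number as a block ended it too (-2.29, adjusted p = 0.0858). For A minus PP the call was kept in 24 of 36 fits that left out 1 array. It ended without A replicate 2 (-1.35, adjusted p = 0.12), A replicate 3 (-1.58, 0.101) or PP replicate 2 (-0.75, 0.535), and, at -1.57 or -1.56, without single arrays of St1, E9.5 CNH, E11.5 CNH and the E9.5 and E10.5 P-CNH. This call ended too with no batch term (-1.34, adjusted p = 0.0803), BeadChip as a random block (-1.48, 0.0753), no filter (-1.57, 0.0820) and batches 2 and 3 alone (-1.57, 0.157). With the replicate number as a block, A minus PP was -1.46 and not called (adjusted p = 0.144). Without PP replicate 1 the A minus PP difference was -2.39.

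In the E8.5 embryo Meox1 was brightest in RN and NSB. The paper also reports Meox1 as enriched in RN, a pool where it expects some incipient somites and emerging neurectoderm. Their part in the level of Meox1 was not tested. It measured 9.71 and 9.06 in RN, 8.71, 8.37 and 9.01 in NSB, and 7.5 and 7.36 in St1. In CLE it measured 5.84, 7.06 and 6.03 and in St5 5.58 and 5.79, with the first array of each undetected. All RN and NSB arrays lay above all St1 arrays, and these above all CLE and St5 arrays, with no overlap between the 3 tiers. RN exceeded St5 by 3.70 (SE 0.46, adjusted p = 5.71e-06), CLE by 3.65 (SE 0.71, adjusted p = 0.00445) and St1 by 1.95 (SE 0.46, adjusted p = 0.0185). NSB exceeded St5 by 2.85 (SE 0.46, adjusted p = 1.79e-04) and CLE by 2.81 (SE 0.54, adjusted p = 0.00250), with 2.46 for NSB minus CLE within batch 3. Against St1, NSB differed by 1.11 without being called (adjusted p = 0.882). St1 was above St5 by 1.74 (SE 0.46, adjusted p = 0.0341), and CLE differed from St5 by 0.04, less than the spread between CLE arrays. The RN minus St1 call ended without RN replicate 1 (1.63, adjusted p = 0.346), St1 replicate 1 (2.02, 0.118) or St1 replicate 2 (1.88, 0.194). That of St1 minus St5 ended without St1 replicate 1 (1.67, adjusted p = 0.259), St1 replicate 2 (1.81, 0.176), St5 replicate 1 (1.64, 0.273) or St5 replicate 2 (1.85, 0.177). The St1 minus St5 call also ended with no background correction (0.97, adjusted p = 0.176), an offset of 100 (0.92, 0.223), no batch term (1.74, 0.0502) and no filter (1.74, 0.0748). The replicate number as a block ended the St1 minus St5 call too (1.74, adjusted p = 0.0516). With no background correction NSB minus St5 was 1.80 and still called.

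Along the CNH series Meox1 was higher at later stages. It measured 7.04 and 7.23 at E9.5, 8.84 and 8.55 at E10.5, 9.39, 9.48 and 9.10 at E11.5, 9.89 and 8.45 at E12.5 and 10.57 and 9.98 at E13.5. Both E13.5 arrays were above every other CNH array, and both E9.5 arrays were below every other one. Its mean deposited linear intensity was 156 at E9.5, 448 at E10.5, 404 at E11.5, 656 at E12.5 and 352 at E13.5. The rank of E13.5 above E10.5, E11.5 and E12.5 therefore comes from background correction and normalisation, and the size of its rise depends on them. Between E9.5 and E13.5 Meox1 rose 9.91-fold (log2 difference 3.31, SE 0.48, adjusted p = 3.64e-05), and by 3.43 within batch 2. No single day's step was called: E10.5 minus E9.5, whose regions share no batch, was 2.37 (SE 0.77, adjusted p = 0.359), E11.5 minus E10.5 was -0.07, E12.5 minus E11.5 was -0.09 and E13.5 minus E12.5 was 1.10 (adjusted p = 0.121). E10.5 and E11.5 CNH share no batch either, and before the batch terms the mean was higher at E11.5 (9.32) than at E10.5 (8.69). From NSB to E9.5 CNH, Meox1 fell by 2.21 (SE 0.62, adjusted p = 0.0371), with no batch holding both, while E10.5 CNH differed from NSB by 0.16. The fall from NSB was not called without E9.5 CNH replicate 1 (-2.12, adjusted p = 0.143), E9.5 CNH replicate 2 (-2.31, 0.0983), E11.5 CNH replicate 3 (-2.21, 0.0535), E12.5 CNH replicate 1 (-2.03, 0.0519) or E12.5 CNH replicate 2 (-2.03, 0.0519). Nor was it called with BeadChip as a random block (-1.68, adjusted p = 0.104) or in batches 2 and 3 alone (-2.21, 0.159). With the replicate number as a block the fall from NSB lost its call as well (-2.28, adjusted p = 0.0561). Within batch 2 the mean of the late stages, E12.5 and E13.5, exceeded that of E9.5 and E11.5 by 1.95. Within batch 3 it exceeded the only E11.5 array there by 0.12, and neither batch holds E10.5 CNH. Over all arrays the late mean exceeded that of E9.5 to E11.5 by 1.20 (SE 0.35, adjusted p = 0.0392), though the arrays overlapped. That call was kept in 21 of 35 fits without 1 array, and ended without E12.5 CNH replicate 1 (0.87, adjusted p = 0.271), without any array of E9.5, E10.5, E11.5 or E13.5 CNH (1.13 to 1.27), without NSB replicate 1 (1.15) or 2 (1.26) and without either E10.5 P-CNH array (1.20). It ended as well with array weights (1.18, adjusted p = 0.171) and with no filter (1.20, 0.0643). The replicate number as a block also ended it (1.13, adjusted p = 0.165).

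Behind the hinge Meox1 was dimmer. P-CNH measured 6.27 and 5.89 at E9.5, 6.86 and 6.75 at E10.5 and 7.85 and 7.66 at E11.5, with E9.5 replicate 2 undetected. On every day both P-CNH arrays lay below all CNH arrays of that day, and the P-CNH arrays of each day lay above those of the day before. Meox1 rose in P-CNH between E9.5 and E11.5 by 1.84 (SE 0.48, adjusted p = 0.0338), and by 1.86 within batch 3. Without E9.5 P-CNH replicate 1 this was 1.86 (adjusted p = 0.12), without replicate 2 it was 1.81 (0.284) and without E11.5 P-CNH replicate 1 it was 1.74 (0.172), none of them called. The call was kept in 5 of 12 other settings. It ended with no background correction (1.16, adjusted p = 0.0749), an offset of 100 (1.13, 0.0856), no batch term (1.67, 0.0618), array weights (1.98, 0.820), no filter (1.84, 0.0690), batches 2 and 3 alone (1.84, 0.170) and the replicate number as a block. CNH exceeded P-CNH by 0.88 at E9.5, 1.89 at E10.5 (adjusted p = 0.110) and 1.35 at E11.5 (adjusted p = 0.564), and none of these was called although the arrays did not overlap. The CNH minus P-CNH difference itself differed between E11.5 and E9.5 by 0.46, which was not called.

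Tcf15, a bHLH factor needed for paraxial mesoderm to form epithelial somites, also separated the E7.5 regions but on other lines than Meox1. It measured 9.46, 10.03 and 8.58 in A, 9.66 and 9.95 in P, and 5.29 and 6.49 in PP, where replicate 1 was undetected. A and P overlapped and PP lay apart below both. PP was 12.4-fold below P (log2 difference -3.63, SE 0.40, adjusted p = 1.20e-05), and A was 9.69-fold above PP (3.28, SE 0.34, adjusted p = 6.62e-07; 2.69 within batch 3). A minus P was -0.36 and was not called. These calls on Tcf15 were kept in every fit that left out 1 array, though their size depends on the PP arrays. PP minus P was -3.03 without PP replicate 1 and -4.24 without PP replicate 2, and A minus PP was 2.67 and 3.88. Without PP replicate 2 the remaining PP array is the undetected one, so -4.24 and 3.88 are not exact sizes.

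At E8.5 Tcf15 measured 8.88 and 8.24 in RN, 7.41, 7.29 and 8.85 in NSB, 7.03, 6.99 and 6.60 in CLE, where replicate 1 was undetected, 6.12 and 6.26 in St1 and 6.06 and 6.00 in St5. Its batch terms were large, 1.78 for batch 2 and 1.5 for batch 3 against batch 1, and NSB replicate 3, the brightest NSB array, is the one in batch 3. Within batch 1 both RN arrays stood above the NSB arrays, and these above all St1 and St5 arrays. RN exceeded St5 by 2.53 (SE 0.35, adjusted p = 2.30e-05), St1 by 2.37 (SE 0.35, adjusted p = 1.29e-04) and CLE by 3.28 (SE 0.54, adjusted p = 7.50e-04). RN and CLE share no batch, and the RN minus CLE difference of Tcf15 was 1.69 with no batch term and 2.08 with BeadChip as a random block, called each time. NSB exceeded CLE by 2.07 (SE 0.41, adjusted p = 0.00333; 2.06 within batch 3) and St5 by 1.32 (SE 0.35, adjusted p = 0.0236). The NSB minus CLE call ended with no batch term (0.98, adjusted p = 0.171) and with BeadChip as a random block (1.21, 0.0742). The NSB minus St5 call ended without NSB replicate 1 (1.26, adjusted p = 0.189), NSB replicate 2 (1.38, 0.117), St5 replicate 1 (1.35, 0.128) or St5 replicate 2 (1.29, 0.176). Tcf15 differed between NSB and St5 by 0.76 with no background correction (adjusted p = 0.136) and by 0.73 with an offset of 100 (0.144), neither called. With no background correction it differed by 1.58 between RN and St1 and 1.65 between RN and St5, both still called. Neither RN minus NSB (1.21, adjusted p = 0.529) nor NSB minus St1 (1.16, adjusted p = 0.172) was called for Tcf15.

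In the hinge Tcf15 measured 9.00 and 8.84 at E9.5, 9.22 and 9.37 at E10.5, 9.30, 9.88 and 9.59 at E11.5, 8.64 and 8.57 at E12.5 and 8.33 and 8.14 at E13.5. The late arrays all lay below the earlier ones, with no overlap. Within batch 2 the mean of E12.5 and E13.5 minus that of E9.5 and E11.5 was -0.77. Within batch 3, against E11.5 alone, it was -1.23. Over all arrays E12.5 and E13.5 differed from E9.5 to E11.5 in mean by -1.33 (SE 0.26, adjusted p = 0.00212). This call ended with no batch term (-0.85, adjusted p = 0.0599), with batch means removed without the regions as covariates (-0.87, 0.078) and with BeadChip as a random block (-0.91, 0.0699), and was kept without any single array. E10.5 CNH exceeded NSB by 1.94 (SE 0.35, adjusted p = 5.44e-04), both in batch 1 but for NSB replicate 3. Single steps were not called for Tcf15, at 2.16 for E10.5 minus E9.5 (adjusted p = 0.203), -1.40 for E11.5 minus E10.5, -0.94 for E12.5 minus E11.5 (adjusted p = 0.366) and -0.37 for E13.5 minus E12.5. E10.5 CNH shares no batch with E9.5 or E11.5 CNH. Before the batch terms the mean rose from E10.5 (9.30) to E11.5 (9.59), so the sign of -1.40 comes from those terms. E13.5 minus E9.5 was -0.54 (adjusted p = 0.284).

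No difference of Tcf15 was called between the hinge and the tissue behind it. In P-CNH it measured 8.05 and 8.19 at E9.5, 8.92 and 9.21 at E10.5 and 9.13 and 9.58 at E11.5. CNH minus P-CNH was 0.66 at E9.5, 0.23 at E10.5 and 0.04 at E11.5, with adjusted p = 1 each time. From E9.5 to E11.5 Tcf15 rose in P-CNH by 1.38 (SE 0.36, adjusted p = 0.0362), and by 1.17 within batch 3. Leaving out any of the 4 arrays ended this call: it was 1.17 without E9.5 replicate 1 (adjusted p = 0.24), 1.66 without E9.5 replicate 2 (0.12), 1.61 without E11.5 replicate 1 (0.062) and 1.15 without E11.5 replicate 2 (0.0682). The call also ended with no batch term (1.24, adjusted p = 0.176), BeadChip as a random block (1.22, 0.100), array weights (1.31, 0.989), no filter (1.38, 0.0614) and batches 2 and 3 alone (1.38, 0.174). The steps of Tcf15 within P-CNH were not called, at 2.59 for E10.5 minus E9.5 (adjusted p = 0.0897) and -1.21 for E11.5 minus E10.5, between regions that share no batch. Before the batch terms the mean was higher at E11.5 (9.36) than at E10.5 (9.07).

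Sox9, an HMG-box factor of cartilage precursors, notochord and neural tissue, was the only member detected on every array. At E7.5 it measured 12.01, 12.22 and 11.54 in A, 10.86 and 10.96 in P and 9.21 and 9.46 in PP. The regions fell in that order without overlap. A exceeded P by 1.29 (SE 0.28, adjusted p = 0.00813; 1.21 within batch 2) and PP by 2.04 (SE 0.29, adjusted p = 4.90e-05; 2.20 within batch 3), while PP minus P was -0.75 and was not called (adjusted p = 0.423). The A minus P call ended without P replicate 1 (1.24, adjusted p = 0.0893), with no batch term (1.01, 0.326) and in batches 2 and 3 alone (1.29, 0.0893).

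At E8.5 Sox9 measured 12.12 and 12.22 in RN, 11.66, 11.73 and 11.36 in NSB, 10.23 and 10.33 in St1, 9.41 and 9.49 in St5 and 8.72, 7.37 and 6.62 in CLE. The 5 regions did not overlap, although CLE arrays spread over a range wider than the gap from St1 to St5. Sox9 was 23.2-fold higher in RN than in CLE (log2 difference 4.54, SE 0.46, adjusted p = 1.45e-06) and 16.7-fold higher in NSB than in CLE (4.06, SE 0.35, adjusted p = 3.83e-08; 4.36 within batch 3). RN exceeded St5 by 2.72 (SE 0.30, adjusted p = 8.77e-07) and St1 by 1.89 (SE 0.30, adjusted p = 2.77e-04). NSB exceeded St5 by 2.25 (SE 0.30, adjusted p = 1.38e-05) and St1 by 1.42 (SE 0.30, adjusted p = 0.00880). CLE minus St1 was -2.65 (SE 0.46, adjusted p = 0.0131) and CLE minus St5 was -1.82 (SE 0.46, adjusted p = 0.0454), called with no batch shared in either case. RN minus NSB was 0.47 and St1 minus St5 was 0.83 (adjusted p = 0.194), neither called.

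Among these Sox9 calls, NSB minus St1 ended without NSB replicate 1 (1.45, adjusted p = 0.078), NSB replicate 2 (1.38, 0.123), St1 replicate 1 (1.37, 0.13) or St1 replicate 2 (1.46, 0.075), and with no batch term (1.30, 0.177). The CLE minus St1 call ended without NSB replicate 1 (-2.62, adjusted p = 0.0876), NSB replicate 2 (-2.68, 0.0521), St1 replicate 1 (-2.70, 0.0591) or St1 replicate 2 (-2.60, 0.0709). CLE minus St5 was kept in 9 of 35 fits without 1 array, with values from -2.11 to -1.43, and was lost without CLE replicate 3 (-1.43, adjusted p = 0.0663), St5 replicate 1 (-1.86, 0.117), St5 replicate 2 (-1.77, 0.171), NSB replicate 1 (-1.78, 0.161) or NSB replicate 2 (-1.85, 0.12), and also without most single arrays of the other regions. It was -0.99 (adjusted p = 0.0861) with batch means removed without the regions as covariates, and -1.36 (0.0502) with no background correction, called in neither.

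A dimmer Sox9 probe, detected on 28 arrays, was also bright at the node. It measured 8.86 and 9.19 in RN and 8.59, 8.46 and 7.27 in NSB, and was undetected on all 3 CLE arrays and on both of E9.5 P-CNH and E13.5 CNH. For a group with no detected array, the fold is given as a lower bound, from the bright group's mean against the dim group's mean of, per array, the higher of the array's lowest detected signal and the probe's own value. By this probe Sox9 was at least 5.59-fold higher in RN than in CLE (adjusted p = 0.0166) and at least 2.95-fold higher in NSB than in CLE (adjusted p = 0.00501). It did not repeat every call of the main probe. Its batch terms were large, -1.63 for batch 2 and -1.26 for batch 3 against batch 1. Before those terms its undetected CLE arrays, at most 4.96, lay below St1 (6.77 and 6.92) and St5 (6.28 and 6.06). Likewise E9.5 CNH (6.28 and 6.34) lay below every NSB array. With those terms the probe called neither CLE minus St1, where CLE was at least 1.23-fold lower, nor CLE minus St5 (adjusted p = 1.00 each). Nor did it call the change from NSB to E9.5 CNH (-0.58, adjusted p = 0.725). These comparisons share no batch and rest on NSB replicate 3.

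In the hinge Sox9 measured 10.40 and 10.39 at E9.5, 11.74 and 11.40 at E10.5, 11.55, 11.58 and 10.88 at E11.5, 11.25 and 10.12 at E12.5 and 10.83 and 10.39 at E13.5. The E9.5 arrays lay below those of E10.5 and E11.5, and the late arrays overlapped with those of E9.5 and E11.5. From NSB to E9.5 CNH, Sox9 fell by 1.79 (SE 0.40, adjusted p = 0.00718), a change not called with no batch term (-1.19, adjusted p = 0.0669), with BeadChip as a random block (-1.28, 0.06) or in batches 2 and 3 alone (-1.79, 0.0676). At E10.5 the CNH differed from NSB by -0.13 (95% interval -0.75 to 0.50). Later steps were not called for Sox9, at 1.66 for E10.5 minus E9.5 (SE 0.50, adjusted p = 0.292), -0.45 for E11.5 minus E10.5, -0.51 for E12.5 minus E11.5 and -0.08 for E13.5 minus E12.5. Late minus earlier CNH was -0.29 (adjusted p = 0.560). It was 0.06 within batch 2, which lacks E10.5, and -0.62 within batch 3, against E11.5 alone.

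Behind the hinge Sox9 measured 8.49 and 8.29 at E9.5, 9.89 and 9.82 at E10.5 and 9.86 and 9.25 at E11.5. On each day all CNH arrays lay above both P-CNH arrays. CNH exceeded P-CNH by 1.59 at E9.5 (SE 0.31, adjusted p = 0.0236; 1.90 within batch 2) and by 1.72 at E10.5 (SE 0.30, adjusted p = 0.00513, all in batch 1). At E11.5 the difference was 1.23 (SE 0.29, adjusted p = 0.118; 1.32 within batch 3) and was not called. It was not shown to change between days: the difference of differences was 0.13 from E9.5 to E10.5 (95% interval -0.77 to 1.02), -0.48 from E10.5 to E11.5 (-1.36 to 0.39) and -0.36 from E9.5 to E11.5 (-1.20 to 0.49), none called. The E9.5 call ended without CNH replicate 1 (1.59, adjusted p = 0.324), CNH replicate 2 (1.59, 0.274) or P-CNH replicate 1 (1.18, 0.755), and the E10.5 call without CNH replicate 1 (1.55, 0.215), P-CNH replicate 1 (1.75, 0.072) or P-CNH replicate 2 (1.68, 0.122). With no batch term neither was called, at 2.00 (adjusted p = 0.0707) and 1.72 (0.185). The E9.5 call also ended with batch means removed without the regions as covariates (1.38, adjusted p = 0.317) and in batches 2 and 3 alone (1.59, 0.350). The dimmer Sox9 probe called the difference at E10.5 (1.91, adjusted p = 0.0470) and not at E9.5 (at least 1.29-fold, adjusted p = 0.611).

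With stage, Sox9 rose in P-CNH by its main probe between E9.5 and E11.5, by 1.58 (SE 0.31, adjusted p = 0.00360), and by 1.27 within batch 3. The dimmer probe was undetected on both E9.5 arrays and on E11.5 replicate 1, and its arrays overlapped. It was not called (adjusted p = 0.984), and at background it cannot show whether Sox9 rose. The rise by the main probe depended on single arrays. This was 1.27 without E9.5 P-CNH replicate 1 (adjusted p = 0.0657) and 1.27 without E11.5 P-CNH replicate 1 (0.0774), and was not called with no batch term (1.16, adjusted p = 0.215), with array weights (1.52, 0.279) or in batches 2 and 3 alone (1.58, 0.0509). The step from E9.5 to E10.5, between regions without a shared batch, was 1.54 and was not called (adjusted p = 0.471).

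Twist1, a bHLH factor of mesenchyme that binds the E-box letters CANNTG, is the only detected member with an entry in the RefSeq promoter table, and its sequence is shown so that its start region can be read beside its levels. Of the 8 members, Pax1, Pax9, Meox2 and Twist1 have an entry, and Pax3, Sox9, Meox1 and Tcf15 have none. The 250 bases before the Twist1 start, from RefSeq on GRCm38.p6, chr12:33957421-33957670, + strand, read as follows, with TATAAA in capitals.
Twist1: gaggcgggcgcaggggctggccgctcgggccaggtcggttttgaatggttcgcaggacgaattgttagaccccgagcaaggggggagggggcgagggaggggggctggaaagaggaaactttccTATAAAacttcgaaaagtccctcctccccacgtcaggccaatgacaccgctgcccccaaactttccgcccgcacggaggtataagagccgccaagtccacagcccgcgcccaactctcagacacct
Both strands were searched. TATAAA has 1 match here and is found in 4063 of 32851 entries of the same length, 12.4%. CANNTG has 0 matches here and is found in 21753 of the 32851 entries, 66.2%, which says only that these letters are not in this window.

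Twist1 was high in the early embryo and in the oldest hinge. At E7.5 it measured 9.63, 9.33 and 9.40 in A, 9.16 and 9.34 in P and 8.17 and 8.13 in PP. PP lay below the other regions, and A and P overlapped by their closest arrays. A exceeded PP by 1.27 (SE 0.37, adjusted p = 0.0411; 1.25 within batch 3), while PP minus P was -1.04 (adjusted p = 0.363) and A minus P was 0.22. The A minus PP call on Twist1 was kept in 16 of 36 fits without 1 array, over values from 1.13 to 1.42. It ended without any of its own arrays: A replicate 1 (1.20, adjusted p = 0.0981), A replicate 2 (1.33, 0.0572), A replicate 3 (1.28, 0.103), PP replicate 1 (1.29, 0.216) or PP replicate 2 (1.25, 0.159), and also without single arrays of several other regions. It ended as well with batch means removed without the regions as covariates (1.06, adjusted p = 0.0733). BeadChip as a random block (1.26, adjusted p = 0.0572) and no filter (1.27, 0.0756) ended it too. So did batches 2 and 3 alone (1.27, adjusted p = 0.165) and the replicate number as a block (1.15, 0.144).

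At E8.5 Twist1 stood out at the posterior end of the streak. It measured 8.75 and 9.17 in St5, 7.5 and 7.23 in RN, 6.97, 6.74 and 7.01 in NSB, 7.01 and 6.78 in St1 and 6.62, 7.11 and 6.58 in CLE, where replicate 1 was undetected. Both St5 arrays were above every other E8.5 array, the reverse of the order seen for Sox9, Meox1 and Tcf15 between St5 and the node. The difference from St5 was -2.11 for NSB (SE 0.38, adjusted p = 5.67e-04), -2.07 for St1 (SE 0.38, adjusted p = 0.00134), -2.36 for CLE (SE 0.58, adjusted p = 0.0379) and -1.60 for RN (SE 0.38, adjusted p = 0.00778). RN minus NSB was 0.51 and was not called. The RN minus St5 call ended without RN replicate 2 (-1.46, adjusted p = 0.106) or St5 replicate 2 (-1.39, 0.141). CLE minus St5, with no shared batch, was kept in 23 of 35 fits without 1 array, from -2.58 to -2.15, and ended for Twist1 without NSB replicate 1 (-2.48, adjusted p = 0.0952), NSB replicate 2 (-2.25, 0.147), CLE replicate 1 (-2.27, 0.0618), CLE replicate 3 (-2.27, 0.0659), St5 replicate 1 (-2.58, 0.0634) or St5 replicate 2 (-2.15, 0.189), and, at -2.36, without either array of St1, E9.5 CNH or E10.5 CNH. The CLE minus St5 call of Twist1 also ended with the replicate number as a block (-2.22, adjusted p = 0.0931). Against the other posterior region, E7.5 PP, which shares no batch with it, St5 differed by 0.97 for Twist1, without being called (adjusted p = 0.563).

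In the hinge Twist1 measured 6.47 and 6.55 at E9.5, 6.46 and 6.46 at E10.5, 5.93, 5.65 and 6.59 at E11.5, 7.35 and 6.59 at E12.5 and 9.5 and 8.05 at E13.5. The first 2 arrays of E11.5 were undetected. Both E13.5 arrays lay above all others, and the brighter is replicate 1. Twist1 rose from E12.5 to E13.5 by 1.81 (SE 0.38, adjusted p = 0.00582; 2.15 within batch 2 and 1.46 within batch 3). From E9.5 to E13.5 it rose by 2.30 (SE 0.39, adjusted p = 2.10e-04; 2.99 within batch 2). In batch 3 the deposited intensity fell from 194 on E12.5 replicate 2 to 96.8 on E13.5 replicate 2. The sign of 1.46 therefore comes from background correction and normalisation. In batch 2 the deposited intensity rose, from 196 on E12.5 replicate 1 to 273 on E13.5 replicate 1. The lowest detected log2 value was 7.19 on E13.5 replicate 2 and 5.60 on E12.5 replicate 2. Late minus earlier CNH was 1.48 (SE 0.28, adjusted p = 0.00151), with overlap between the arrays. It was 2.28 within batch 2, which lacks E10.5, and 0.73 within batch 3, against E11.5 alone. Without E13.5 CNH replicate 1 the rise from E12.5 was 1.00 and not called (adjusted p = 0.0517), and that from E9.5 was 1.38 and still called. Without E13.5 CNH replicate 2 these were 2.62 and 2.99, both called. Without E12.5 CNH replicate 2 the rise from E12.5 was 1.40 (adjusted p = 0.201), and it was 1.81 with array weights (adjusted p = 0.292) and in batches 2 and 3 alone (0.0581), called in none of these. E12.5 minus E11.5 was 0.93 and was not called (adjusted p = 0.436), with 1.56 within batch 2 and -0.00 within batch 3.

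Twist1 was low in all P-CNH pools, at 6.23 and 6.74 at E9.5, 6.39 and 6.77 at E10.5 and 6.82 and 6.11 at E11.5. These arrays overlapped from day to day and with CNH. CNH minus P-CNH was -0.01 at E9.5, -0.12 at E10.5 and -0.45 at E11.5, none called.

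**Figure D2:**
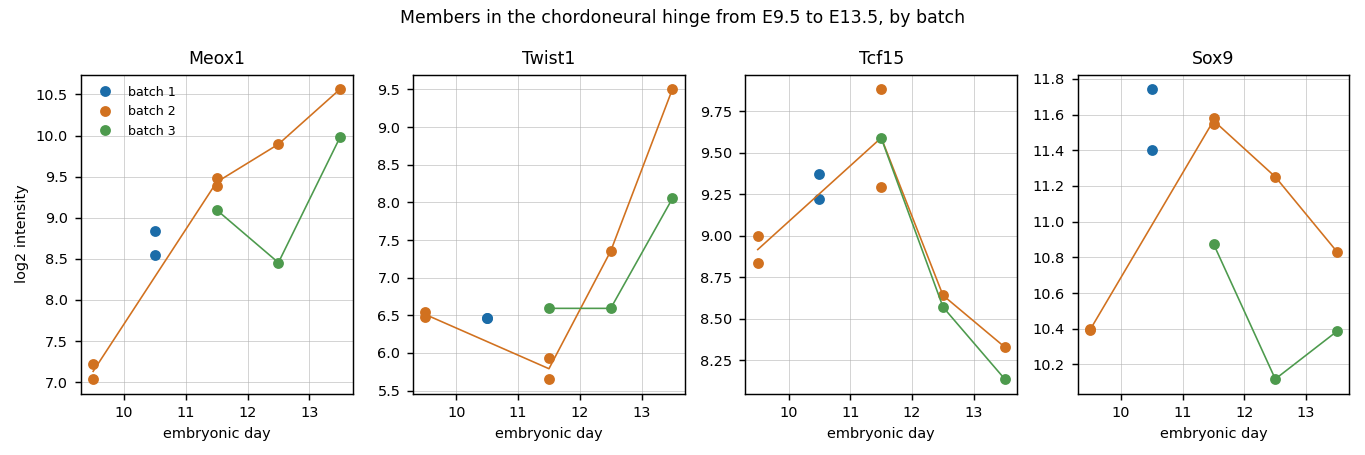
Normalised log2 intensity (vertical axis) of Meox1, Twist1, Tcf15 and Sox9 in CNH from E9.5 to E13.5 (horizontal axis), with points for arrays, colour for the batch and lines joining the means of each batch. Meox1 went from 7.04 and 7.23 at E9.5 to 10.57 and 9.98 at E13.5, and Twist1 from 6.47 and 6.55 to 9.5 and 8.05, while Tcf15 ended at 8.33 and 8.14.

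The batch-adjusted levels ranked the regions differently for each member. Meox1 was highest in E7.5 P (9.83), E13.5 CNH (9.64) and E8.5 RN (9.38) and lowest in E8.5 CLE (5.73), E8.5 St5 (5.68) and E9.5 P-CNH (5.44), and its largest gap between neighbours was 0.91. Tcf15 was highest in the E10.5 pools of CNH (9.30) and P-CNH (9.07) and lowest in E8.5 CLE (5.28) and E7.5 PP (4.39), with a largest gap of 0.89. That order of Tcf15 depends on the batch terms, which rest on NSB replicate 3 for batch 1. Without them its means were highest in E7.5 P (9.81) and E11.5 CNH (9.59), above E10.5 CNH, and CLE (6.87) lay above St1 (6.19) and St5 (6.03). Meox1 was then lowest in St5. In the adjusted order of both genes, no pair of neighbours that was tested differed by a called amount. Sox9 was highest in E8.5 RN (12.17), E7.5 A (11.71) and E8.5 NSB (11.70), and lowest in E9.5 P-CNH (8.32) and E8.5 CLE (7.63). Its largest gap, 1.13, lay between E8.5 St5 (9.45) and E9.5 P-CNH, a pair that was not tested. Twist1 was highest in E7.5 A (9.26), E7.5 P (9.04), E8.5 St5 (8.96) and E13.5 CNH (8.59) and lowest in E11.5 CNH (5.86), with no gap above 0.63. The residual SD was 0.48 for Meox1, 0.35 for Tcf15, 0.29 for Sox9, 0.38 for Twist1 and 0.32 for Pax3, so most neighbours lay within the spread between arrays.

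Across the 16 batch-adjusted region levels, Meox1 and Sox9 correlated at r = 0.646, Sox9 and Tcf15 at 0.605, Meox1 and Tcf15 at 0.377, and Pax3 and Twist1 at -0.459. Meox1 and Twist1, which both ended high in E13.5 CNH, correlated at 0.113 over all regions. These points share batches and arrays, and the values are a description. Among 5817 probes detected on at least 6 arrays with a range of at least 2, the genes most like Sox9 over the 16 regions were Foxa2 (r = 0.867), Chrd (0.848) and Shh (0.847), all genes of the notochord list. Those most like Meox1 were Bicc1 (0.867) and Ltbp3 (0.846), those most like Twist1 were Leprel1 (0.894), Cd248 (0.893) and Cxcl12 (0.881), and those most like Tcf15 were Bik (0.804), Mmp17 (0.801) and Kcnh2 (0.796). Pax3, detected on 6 arrays only, was most like Tmem50b (0.926) and Dlgap2 (0.918).

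**Figure D3:**
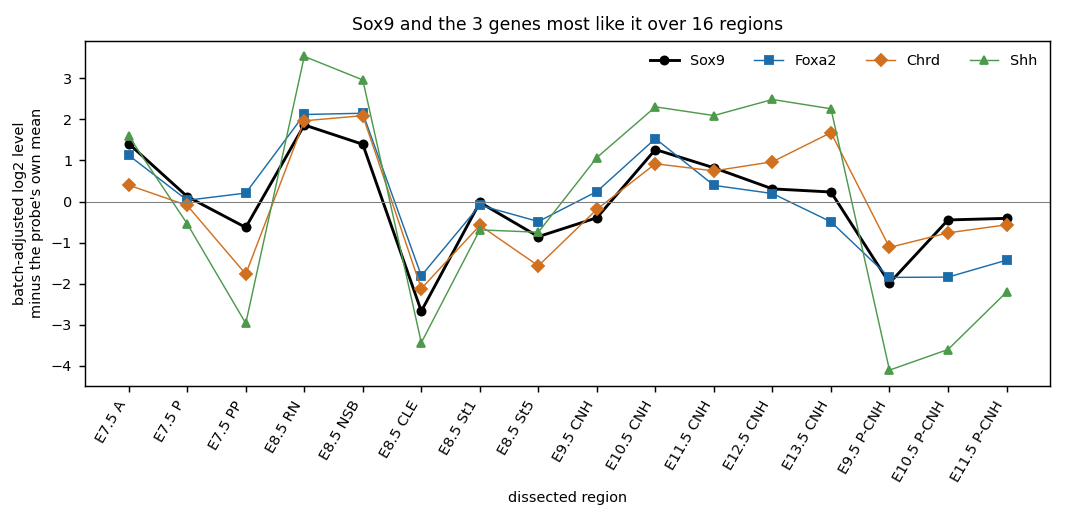
Batch-adjusted log2 level minus the gene's own mean (vertical axis) of Sox9, Foxa2, Chrd and Shh in the 16 regions (horizontal axis). Over these regions Sox9 correlated with Foxa2 at r = 0.867, with Chrd at 0.848 and with Shh at 0.847, and Sox9 was lowest in E8.5 CLE.

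Counted by comparison, 8 of 15 member tests were called between the E7.5 regions. In A minus P, 1 member was higher and 1 lower where 2.73% of tested probes were called, in PP minus P 0 were higher and 2 lower (0.792%), and in A minus PP 3 were higher and 1 lower (6.15%). Sox9, Tcf15 and Twist1 were the members above PP in A, and Meox1 the one below.

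Between E8.5 regions 23 of 50 member tests were called. RN minus CLE called 3 higher and 0 lower (1.43% of tested probes), RN minus St1 3 and 0 (2.24%), RN minus St5 3 and 1 (6.05%), NSB minus CLE 3 and 0 (2.4%), NSB minus St1 1 and 0 (1.42%) and NSB minus St5 3 and 1 (5.21%). The higher members were Meox1, Tcf15 and Sox9 wherever there were 3, and the lower one was Twist1. CLE minus St1 called 0 higher and 1 lower, Sox9, where limma called 0.106% of probes, CLE minus St5 0 and 2 (1.48%), and St1 minus St5 1 and 1 (3.27%). RN minus NSB called 0 members, where limma called 0.134% of probes and 362 had an unadjusted p under 0.05.

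From NSB through the CNH stages 6 of 35 member tests were called. E9.5 CNH minus NSB called 0 higher and 2 lower (5.04% of probes), Meox1 and Sox9, E10.5 CNH minus NSB 1 and 0 (7.14%), Tcf15, E13.5 minus E12.5 CNH 1 and 0 (9.33%), Twist1, and E13.5 minus E9.5 CNH 2 and 0 (23%), Meox1 and Twist1. E10.5 minus E9.5 CNH called 0 members, where limma called 0.0737% of probes and 1471 had an unadjusted p under 0.05. The count was also 0 for E11.5 minus E10.5 (limma called 0.0829%, with 860 at an unadjusted p under 0.05) and for E12.5 minus E11.5 (0.226%, with 1657). Late minus earlier CNH called 2 higher, Meox1 and Twist1, and 1 lower, Tcf15, where 5.96% of probes were called.

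In P-CNH, E11.5 minus E9.5 called 3 members higher, Meox1, Tcf15 and Sox9, and 0 lower, where 3% of probes were called. E10.5 minus E9.5 P-CNH called 0 members (limma called 0.0967% of probes, with 968 at an unadjusted p under 0.05), as did E11.5 minus E10.5 P-CNH (0.115%, with 979). CNH minus P-CNH called Sox9 alone at E9.5, 1 member where 0.17% of probes were called, and at E10.5, 1 member where 0.318% were called. At E11.5 it called 0 (limma called 0.161%, with 1022 at an unadjusted p under 0.05). The changes of this difference between days called 0 members, from E9.5 to E10.5 (limma called 0% of probes, with 446 at an unadjusted p under 0.05), from E10.5 to E11.5 (0.00461%, with 324) and from E9.5 to E11.5 (0.0276%, with 1272). St5 minus E7.5 PP also called 0 members (limma called 1.03%, with 2556), Meox1 differing by -1.94 (adjusted p = 0.253) and Tcf15 by 1.64 (adjusted p = 0.183).

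**Figure D4:**
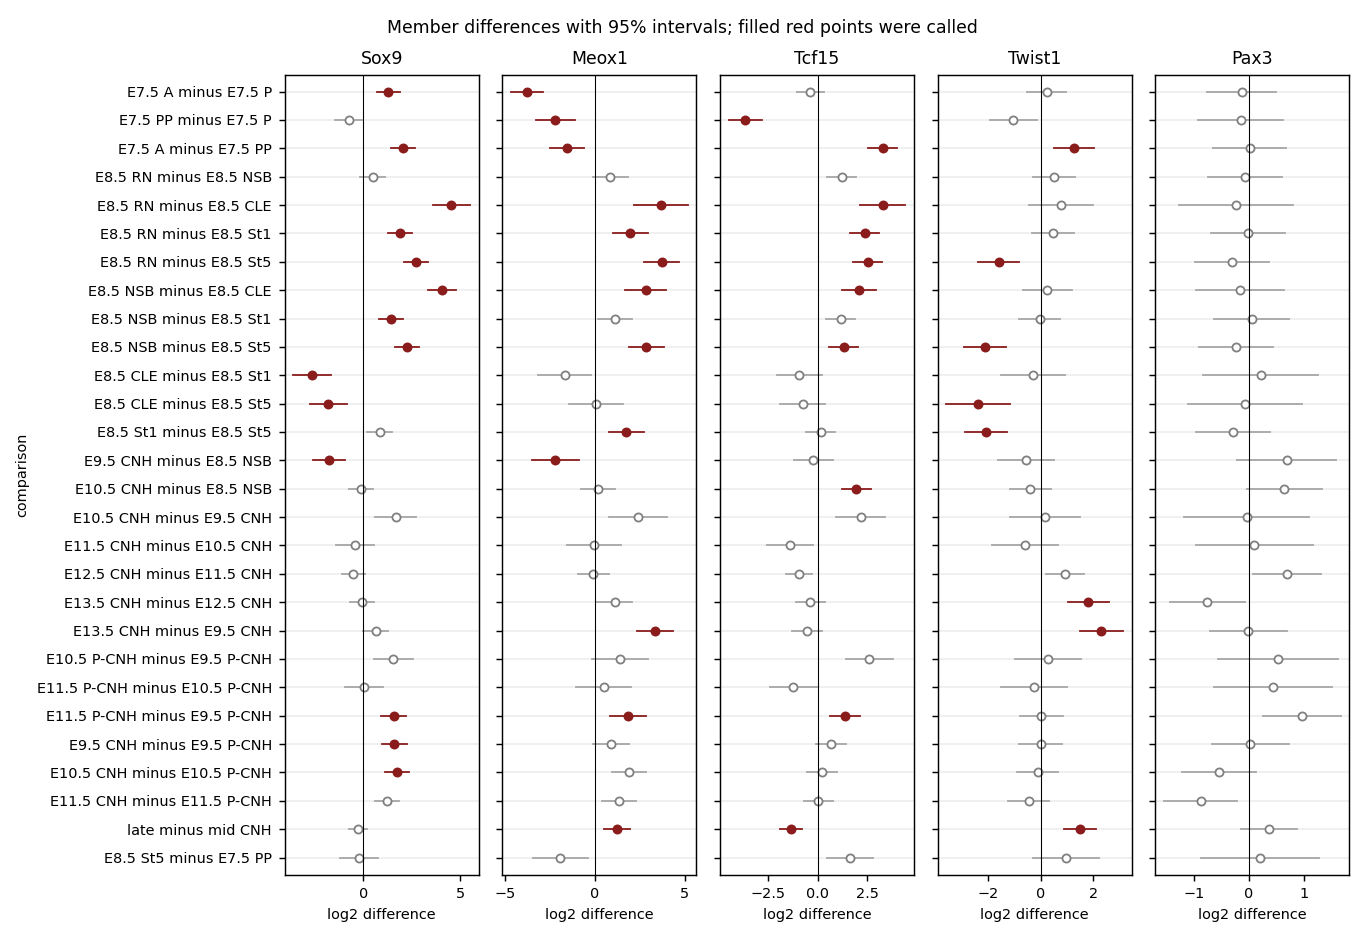
Log2 difference with its 95% interval (horizontal axis) of Meox1, Tcf15, Sox9, Twist1 and Pax3 in 28 pairwise comparisons of regions (vertical axis), with filled red points where the difference was called. The largest called differences are Sox9 in RN minus CLE, 4.54, and in NSB minus CLE, 4.06.

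At E7.5 some genes that act before or beside the members in somite formation were also lower in A. Of 7 tested presomitic and segmentation genes, 0 were higher and 4 lower in A than in P, with a median difference of -1.74 against 0.04 over all probes. Among them were Tbx6, which commits cells to paraxial mesoderm (at least 25.9-fold lower, adjusted p = 1.01e-11), and the Notch ligand Dll1 (-3.48, adjusted p = 0.00242). The presomitic list summed to 364.2, 410.2 and 252.8 in linear intensity on the A arrays, with Mesp1 the most abundant and Tbx6 undetected, against 3903 and 3242 in P and 6220.2 and 5007 in PP, where Tbx6 was the most abundant. Here and below, the gene called most abundant, or leading a list, is the one with the brightest probe. Brightness does not rank the transcripts of different genes. In PP, where Meox1 and Tcf15 were below P, 0 of the 7 genes were higher than in P and 1 was lower. Of 6 tested sclerotome and cartilage genes, 2 were higher and 0 lower in A than in P (median 0.65), Col2a1, the main cartilage collagen and a target of Sox9 (1.87, adjusted p = 0.00589), and Sox5, at least 1.5-fold.

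Anterior genes of the E7.5 embryo were high where Sox9 was. Of these, Otx2 was 5.85 (adjusted p = 1.65e-12) and Pou3f1 4.03 (adjusted p = 6.78e-07) higher in A than in PP. Six3 and Hesx1 were detected on 1 array each, in A, so that they were tested only through that region and their direction carries no weight. The whole anterior list summed to 8988, 8296 and 4928 on the A arrays, 1996 and 1457 in P and 140.03 and 135.6 in PP, with Otx2 the most abundant in A. The neural tube list, with Irx3 the most abundant in A, summed to 4960, 5754 and 1872 in A, 3235 and 4519 in P and 413.7 and 412.7 in PP. The notochord list summed to 5071, 5260 and 2575 in A with 6 of 6 genes detected, and 7014 and 15470 in PP with Shh, Noto and Nog undetected, so its sum, led by the streak gene T, ran against Sox9 while Shh was at least 29.7-fold higher in A than in PP. The part of these tissues in the Sox9 difference was not tested. In pooled tissue, fewer cells of a type and less RNA per cell cannot be told apart, here or in any comparison above.

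Around the E8.5 node, genes of the notochord were high where Sox9, Meox1 and Tcf15 were. Of 6 tested notochord genes, 5 were higher and 0 lower in RN than in St1 (median 2.58), 5 and 0 in RN than in St5 (3.57) and 3 and 0 in RN than in CLE (3.60), beside medians over all probes of -0.03, -0.02 and -0.03. The Sonic hedgehog gene Shh, which induces sclerotome, was at least 44.2-fold higher in RN than in CLE (adjusted p = 1.53e-05) and Foxa2, a forkhead gene of node and notochord, at least 3.69-fold. The list summed to 10461 and 12752 in RN and to 11401, 14201 and 12395 in NSB with 6 of 6 detected, to 5628 and 7019 in St1 with 6 of 6, to 5568 and 5949 in St5 with Noto and Nog undetected, and to 3255, 2854 and 6833 in CLE with Foxa2, Shh and Noto undetected. T was the most abundant on all of them. The endoderm list followed the members only in part. It summed to 13196 and 12334 in RN, 14811, 14047 and 14330 in NSB, 12409 and 10406 in St1, 8952 and 7435 in St5 and 3627, 5542 and 3882 in CLE, with Trh the most abundant in RN and Sox17, Foxa1, Afp and Ttr undetected in CLE. Of 6 endoderm genes 3 were higher in RN than in CLE, 2 than in St5 and 0 than in St1, and 0 were lower. Endoderm had been removed from the CLE pools at dissection. The neural tube list, led by Irx3, summed to 1546 and 1278 in RN, 772.3, 877.3 and 696.5 in NSB, 766.5, 351.2 and 844.4 in CLE, 515.3 and 410.7 in St1 and 327.3 and 273.6 in St5. The blood list, led by Hbb-bh1, summed to 3143 and 1656 in RN, 231.6, 409.7 and 538.8 in NSB, 146.3, 50.7 and 50.7 in CLE, 906.7 and 254.1 in St1 and 513.5 and 162.9 in St5. The RN pools are also expected by the paper to hold incipient somites. Whether any of these tissues has a part in the level of Sox9, Meox1 and Tcf15 at the node was not tested.

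Some other somite genes were high at E8.5 in the same regions as Meox1 and Tcf15. Of 6 tested, 4 were higher and 0 lower in RN than in St5 (median 1.96 against -0.02 over all probes) and 2 and 0 in RN than in St1 (0.86). Foxc2, a forkhead gene of paraxial mesoderm, was 3.27 higher in RN than in St1 (adjusted p = 0.00150). The presomitic list summed to 1994 and 1191 in RN, below NSB (3955, 2993 and 2898), St1 (4965 and 4922) and St5 (4148 and 4592). In CLE it summed to 1485, 2471 and 2489. Of 6 sclerotome and cartilage genes, 1 was higher and 0 lower in RN than in CLE (0.89), and 3 were higher and 0 lower in RN than in St1 (0.87) and in RN than in St5 (0.60), including Col2a1, at 2.24 (adjusted p = 0.00191) and 3.14 (adjusted p = 1.27e-05), and Foxd1, at 2.48 against St1 (adjusted p = 5.42e-04). The order of this list was not that of Sox9. It summed to 471.6, 864.3 and 543.4 in CLE, above St1 (298.1 and 287.4) and St5 (289.8 and 272.7), and to 969.2 and 1008 in RN. RN and NSB, between which no member was called, differed in Ripply2, a gene of segment boundaries, at least 2.21-fold higher in RN (adjusted p = 5.75e-05), and in Tbx6 (-1.62, adjusted p = 0.0176).

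Lateral mesoderm markers moved with Twist1 in St5. Foxf1, Hand1, Isl1 and Tbx4 were each called lower in RN, NSB, St1 and CLE than in St5, and Osr1 in none of them. Hand2 was detected on 2 arrays, both of St5, so that it was tested only through that region and is not counted here. The list summed to 7104 and 8336 in St5, with 6 of 6 detected and Tbx4 the most abundant. Tbx4, a T-box gene of the hindlimb and allantois, was at least 41.0-fold lower in CLE than in St5 (adjusted p = 1.20e-08), and Foxf1, a forkhead gene of lateral mesoderm, was at least 11.0-fold lower in NSB. In St5 minus E7.5 PP, where Twist1 was not called, 1 lateral gene was higher and 0 lower, Tbx4 (4.91, adjusted p = 5.86e-07). Endothelial genes were also higher in St5. Of 3 tested, 0 were higher and 2 lower in each of RN (median -2.39), NSB (-2.41), CLE (-2.31) and St1 (-2.35) than in St5. Their list summed to 416.5 and 485.7 in St5, with 3 of 5 detected and Tek the most abundant, and to 64.9 and 93.3 in RN. The part of these tissues in the Twist1 level of St5 was not tested.

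From NSB to the early hinge, some sclerotome and cartilage genes rose where Meox1 and Sox9 fell. In E9.5 CNH minus NSB, 2 of 6 were higher and 0 lower (median 1.02 against 0.07 over all probes), Foxd1, a forkhead gene (3.24, adjusted p = 5.54e-04), and Sox5 (1.15, adjusted p = 0.0336). In E10.5 CNH minus NSB, where Tcf15 was called higher, 3 were higher and 0 lower (1.62 against -0.01), Foxd1 at 3.36 (adjusted p = 4.50e-06), Sox5 at 2.42 (adjusted p = 1.38e-07) and Col2a1 at 1.86 (adjusted p = 0.00480). The retinoic acid enzyme gene Aldh1a2 fell in both, at least 5.64-fold and at least 8.52-fold. Blood genes rose at the same step. Of 5, 4 were tested and 3 were higher in each comparison (medians 4.31 and 5.30), and the embryonic globin gene Hbb-y was at least 193.1-fold higher at E9.5. The blood list summed to 231.6, 409.7 and 538.8 in NSB, 26819 and 27206 in E9.5 CNH and 22136 and 22177 in E10.5 CNH, with Hbb-y the most abundant in CNH. Endoderm genes fell at the same step. In E9.5 CNH minus NSB, 0 of 6 were higher and 3 lower (median -3.15), Trh (-5.12, adjusted p = 2.75e-09), Cldn6 (-3.36, adjusted p = 2.60e-04) and Sox17, at least 6.81-fold. The endoderm list summed to 14811, 14047 and 14330 in NSB, led by Trh, and to 1448 and 1426 in E9.5 CNH. The part of these tissues in the fall of Meox1 and Sox9 was not tested.

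Where Meox1 and Twist1 rose to E13.5, markers of skin and vessels rose too. By the paper's methods, surface ectoderm was expected in the pools of E13.5 CNH and of St5. In E13.5 minus E9.5 CNH, 3 of 5 surface ectoderm genes were higher and 0 lower (median 4.03 against -0.12 over all probes), among them the basal keratin Krt14, at least 26.5-fold (adjusted p = 2.03e-06). The surface ectoderm list summed to 215.7 and 240.3 at E9.5, 417.9 and 369.2 at E10.5, 743.6, 374.7 and 926.5 at E11.5, 1614 and 1538 at E12.5 and 4132 and 4181 at E13.5, where 4 of 5 were detected with Krt14 the most abundant. At E9.5 2 of 5 were detected, and Trp63, Krt14 and Krt15 were not. Of 3 tested endothelium genes, 3 were higher, with Pecam1 at least 2.81-fold, and that list summed to 81.5 and 121.3 at E9.5, with 0 of 5 detected, and to 580.6 and 560.3 at E13.5 with Pecam1 the most abundant. Measured neural crest markers other than Msx1 and Snai2, Sox10 and Foxd3 among them, were undetected, and Snai2 was at least 3.24-fold higher at E13.5. The endoderm list went in sum from 1448 and 1426 at E9.5 to 4431 and 4446 at E13.5, with Cldn6 higher (2.78, adjusted p = 5.46e-05) and Trh lower. The neural tube list went from 788.5 and 818.3 to 247.2 and 300.7, with Irx3 lower (-1.58, adjusted p = 0.0333). The part of these tissues in the rise of Twist1 and Meox1 was not tested.

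Late sclerotome and cartilage genes were mixed beside Twist1 and Meox1. In E13.5 minus E9.5 CNH, 3 of 6 were higher and 1 lower (median 1.39). Sox5 (2.57, adjusted p = 1.74e-07) and Col2a1 (1.78, adjusted p = 0.00506) were among the higher ones, and Foxd1 was lower (-2.75, adjusted p = 8.55e-05). This list summed to 1638 and 1696 at E9.5 and 6908 and 4462 at E13.5, with Col2a1 the most abundant at E13.5 and 5 of 11 genes detected. Beside Tcf15, the member called lower in the late hinge, 1 of 6 other somite genes was higher there and 0 lower (median 0.36 against -0.05 over all probes), Aldh1a2 (2.08, adjusted p = 2.70e-04), with overlapping arrays. Pax1, Pax9 and Nkx3-2 were undetected in these samples too.

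Between the hinge and the tissue behind it, some notochord genes were higher in CNH on each day, while Sox9 was called at E9.5 and E10.5 only. Of 6, 2 were higher in CNH at E9.5, 3 at E10.5 and 1 at E11.5, and 0 were lower (medians 1.51, 2.53 and 1.57 against 0.00, -0.01 and -0.01 over all probes). Shh was at least 21.4-fold higher at E9.5 (adjusted p = 4.24e-05), at least 34.9-fold at E10.5 (adjusted p = 3.64e-06) and 4.30 higher in log2 at E11.5 (adjusted p = 2.97e-04), the day on which Sox9 was not called. The list was detected 6 of 6 in CNH on all days, summing to 15410 and 16522 at E9.5, 15750 and 14623 at E10.5 and 22579, 22225 and 18328 at E11.5. In P-CNH it summed to 17740 and 11750 at E9.5, 10832 and 12406 at E10.5 and 6606 and 19145 at E11.5, mostly from T, and Foxa2, Shh and Noto were undetected at E9.5 and E10.5. Sclerotome and cartilage genes called 0 of 6 on any day (medians 0.19, 0.12 and 0.56). Of 6 endoderm genes 1 was higher in CNH at E9.5, 3 at E10.5 and 1 at E11.5, and 0 were lower, with sums of 2939 and 2510.5 in CNH against 1080 and 785.7 in P-CNH at E10.5. At E11.5 the endoderm sums ran the other way, at 2698, 2138 and 2286 in CNH against 4136 and 3413 in P-CNH. At E9.5 the blood list summed to 26819 and 27206 in CNH against 5625 and 3039 in P-CNH, with 0 of 4 tested genes called, and the neural tube list to 788.5 and 818.3 against 332.6 and 474.1, with 0 of 5. The part of these tissues in the Sox9 difference was not tested.

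Beside Meox1, Tcf15 and the main probe of Sox9, called higher in P-CNH at E11.5 than at E9.5, 2 of 6 sclerotome and cartilage genes were higher and 0 lower (median 0.79 against -0.03 over all probes), with Sox5 at 1.29 (adjusted p = 0.00288). Of 5 surface ectoderm genes 3 were higher (2.63), with Trp63, the master gene of stratified skin, at least 3.23-fold (adjusted p = 5.37e-04), and of 4 tested blood genes 2 were higher (2.18). The surface ectoderm list summed to 582.2 and 198.9 at E9.5 and 2202 and 1186 at E11.5, led by Cldn4, and the blood list to 5625 and 3039 and then to 7714 and 22413, led by Hbb-y. The endoderm list summed to 863.8 and 375.3 at E9.5 and 4136 and 3413 at E11.5, led by Cldn6, with 1 of 6 higher and 1 lower (median -0.07). Of the notochord list 3 of 6 genes were detected at E9.5 and 5 of 6 at E11.5, Shh and Noto only at E11.5, and 0 of 6 were called (median 0.48). The part of these tissues in the rise of the members was not tested.

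**Figure D5:**
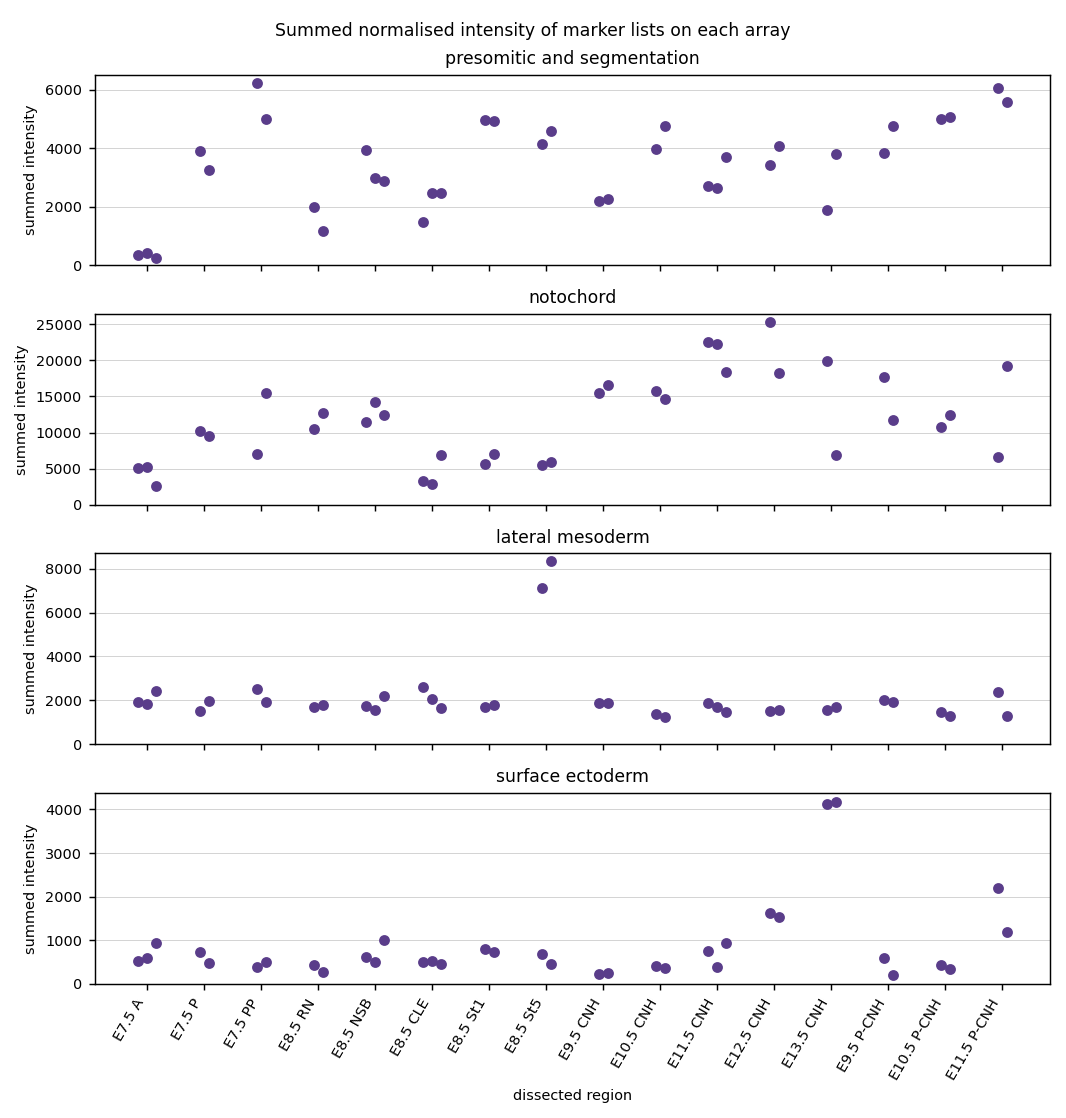
Summed normalised linear intensity (vertical axis) of the presomitic, notochord, lateral mesoderm and surface ectoderm lists on each array, by region (horizontal axis). Lateral mesoderm reached 7104 and 8336 in E8.5 St5, and surface ectoderm 4132 and 4181 in E13.5 CNH.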

How the data were processed

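The authors deposited, for 45281 probes on 36 arrays, the mean bead intensity on a linear scale, with background and not normalised between arrays. They also deposited a detection p-value for each probe and array, in steps of 1 in 936. The submitters' notes name lumi, with its version not given, and no normalised table was used. Log2 values were computed from the deposited intensity with limma 3.58.1 in R 4.3.3 by normexp background correction (offset 16, controls inferred from the detection p-value) and quantile normalisation. The 21712 probes detected (p-value under 0.01) on 1 array or more were tested, and 23569 were left out. All 36 arrays entered 1 limma model with terms for 16 regions and 3 batches (18 residual degrees of freedom), giving 28 pairwise comparisons, 3 differences of differences and a test over all regions. Moderated two-sided p-values were Benjamini-Hochberg adjusted over all tested probes within each comparison. For a gene with several probes the one with the highest mean log2 value stands for it. List genes were named when called with arrays that do not overlap, or to complete an account of a member. The members and gene lists were chosen with earlier results of these data known. Symbols follow the table: 16219 of 30869, and 8 of 8 members, are in the RefSeq table of GRCm38.p6, which was used for names only. Alternatives changed background correction, offset, normalisation, batch handling, array weights, a replicate block, the filter, the probe of a gene and, in turn, each array left out. Leaving out the 2 arrays with the fewest detected probes, and fitting batches apart, were added after seeing the data. The pipeline was tested on simulated data. Replicates are pools, so p-values measure the spread between pools. Figures were drawn with matplotlib 3.10.9 in Python 3.11.15.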

Additional observations from a re-analysis of the deposited data

How the results depend on the processing

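Of 45 called member differences, none turned sign under any setting. Every setting normalised the arrays to each other. The number kept was 45 with cyclic loess and with a filter asking for detection on all arrays of some region, 42 with an offset of 100, 41 with no background correction and with batch means removed without the regions as covariates, 39 with array weights, 38 with no filter, 37 with BeadChip as a random block, 37 with the replicate block and 33 with no batch term. Without the 2 arrays with the fewest detected probes, chosen after seeing the data, 44 were kept. Batch 1 alone kept 16 of 16 and batches 2 and 3 alone 9 of 20.

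The E7.5 regions gave 8 calls, 5 with BeadChip as a random block, 5 with no filter and 5 to 8 with 1 array left out. For P-CNH stages the 3 calls became 0 with no batch term, 2 with the other probe of Sox9 and 0 to 4 with 1 array left out, 0 without E11.5 P-CNH replicate 1. Between CNH and P-CNH the 2 calls became 0 with no batch term, 1 with batch means removed without the regions as covariates, 1 with the other probe of Sox9 and 1 to 3 with 1 array left out. St5 against E7.5 PP gave 0, and 1 with no batch term, 1 with batch means removed without the regions as covariates, 1 with BeadChip as a random block, 2 with array weights and 0 to 1 with 1 array left out. NSB and the CNH stages gave 6, 12 with array weights and 4 to 6 with 1 array left out. The E8.5 regions gave 23, and 17 to 23 with 1 array left out. Late against earlier CNH gave 3, and 2 to 3 so. The test over all regions gave 5 throughout.

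With the replicate block, the calls were 5 between E7.5 regions, 21 between E8.5 regions, 5 for NSB and the CNH stages, 3 for P-CNH stages, 2 between CNH and P-CNH, 2 late against earlier CNH, 0 for St5 against E7.5 PP and 5 over all regions. The 8 calls not kept were Meox1 in PP minus P, A minus PP, St1 minus St5, E9.5 CNH minus NSB, E11.5 minus E9.5 P-CNH and late against earlier CNH, and Twist1 in A minus PP and CLE minus St5. The 3 P-CNH calls under the block are therefore not the same 3 as in the main fit, since a call was also gained. After region and batch, pairs with the same number correlated at a mean r of 0.00593 (246 pairs) and others at -0.00408 (360). Within an age these were 0.105 (33) and -0.0644 (54). In a region with 2 arrays the residuals of the fit mirror each other. Between such regions, same-number and other pairs therefore have equal and opposite r by construction. The pair counts repeat such values, and the contrast of the means is not separate evidence on pairing. In batch 1, same-numbered arrays of an age correlated at 0.0982 to 0.391 and also share a BeadChip and a number of pieces, so that shared embryos and the BeadChip cannot be told apart there. Elsewhere r within an age ran from -0.318 to 0.237. The labels do not say whether regions share embryos, and samples were treated as unpaired.

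Without E8.5 NSB replicate 3, comparisons that join batch 1 to the other batches could not be fitted. A region left with a lone array was assumed to vary like the other groups. Signal near background limits what Pax1, Pax3, Pax9 and Meox2 can show. The cause was not tested for any of these changes.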
